A study of Mus musculus with 7 samples.

Results

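The 50 genes described here lie within 750 kb of Myod1 on mouse chromosome 7 and were taken from 37468 rows measured in liver RNA. They are the rows whose position on the mm9 build overlaps chr7:52881844-54384462, without Myod1 itself and without Saa1, Saa2, Saa3, Dbp, Rpl18 and Sult2b1. Of these, 30 lie before Myod1 on the chromosome and 20 after it. A gene name is carried by 40 of them, and the other 10 are predicted genes, a clone and small RNAs. Position set the window, and the genes left out were removed by name. The members were chosen with earlier results of these data known. Liver RNA of C57BL/6 mice was sequenced in 7 libraries of 4 groups. The group Myod1_active is 1 library from SunTag-dCas9 mice with Myod1 activated, and Myod1_control is 2 libraries of the same kind of mice that served as its controls. SunTag is 2 further libraries of SunTag-dCas9 mice, and WT is 2 libraries of wild-type mice. The sources used here do not give the means of activation, the treatment of the controls, the promoter of the knock-in or the age of the mice. The activated group has no replicate.

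MYOD1 is a basic helix-loop-helix transcription factor that starts the skeletal muscle programme and is normally silent in liver. It binds E-boxes, short DNA motifs of the form CANNTG, often CAGCTG. dCas9 binds DNA where a guide RNA directs it and does not cut, and SunTag is a peptide array that brings several copies of an effector to that site. Genes on both sides of such a site share its chromosome, which is why their levels are read beside that of the target.

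Expression was given as FPKM, which counts fragments relative to transcript length and library size. The FPKM of all rows summed to between 1.26e6 and 1.97e6 per library, and read totals were not given. Short rows of 107 bases had a most common non-zero value of 6.51 to 7.55 FPKM, which places the relative depth of the libraries between 0.950 and 1.10. Xist lay between 0.0042 and 0.324 FPKM in the 3 libraries of the Myod1 experiment and between 56.9 and 82.2 FPKM in the other 4. The experiment, the sex of the mice and any batch therefore cannot be told apart when Myod1_control is set against SunTag. Hepatocyte markers summed to 42126 FPKM or more in each library.

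Myod1 (ENSMUSG00000009471, chr7:53631844-53634462) had 3.52 FPKM in the Myod1_active library against 0 in each of the other 6 libraries. The library labelled as activated was thus the only one with a value above 0. Of the 3 nearest named genes on each side, Sergef, 64.1 kb after Myod1, was between 1.39 and 3.28 FPKM, and the other 5 were below 1 FPKM in all 7 libraries. Kcnc1, a voltage-gated potassium channel 17.4 kb after Myod1, had 0.0748 FPKM in Myod1_active, 0.0395 and 0.0574 in Myod1_control, 0.0293 and 0.0438 in SunTag, and 0.0450 and 0.0282 in WT. The activated library was the highest of the 7, at a level far below 1 FPKM. Otog, which encodes otogelin of the inner ear and lies 65.0 kb before Myod1, had 0.0120 FPKM in Myod1_active, 0.00552 and 0.0165 in Myod1_control, 0.00500 and 0.0112 in SunTag, and 0.00531 and 0.0108 in WT. Its groups overlapped. Ush1c, the Usher syndrome scaffold harmonin 138 kb before Myod1, was listed at 0 in the 3 libraries of the Myod1 experiment and at 0.0283 to 0.0493 FPKM in the other 4. Abcc8, the sulfonylurea receptor of the pancreatic beta cell 196 kb before Myod1, was above 0 in the WT libraries only, at 0.0111 and 0.00562 FPKM. Tph1, which makes serotonin outside the brain and lies 268 kb after Myod1, ranged from 0.0353 to 0.206 FPKM, with 0.0353 in Myod1_active against 0.203 and 0.0406 in Myod1_control.

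The roles by which genes are grouped here were assigned with their levels known. Below 1 FPKM in every library were 21 of the 40 named genes, and 12 stayed below 0.1 FPKM. The 4 potassium channel genes, Kcnj11, Abcc8, Kcnc1 and Kcnj14, reached at most 0.0748 FPKM. Kcnj11 encodes the pore of the beta-cell channel that Abcc8 regulates. Neural and serotonin genes, among them the glutamate receptor subunit Grin2d, the kinase Lmtk3, the phosphatase Ptpn5, Ntn5 and Tph1, reached at most 0.640 FPKM in 5 genes. Genes of sperm, egg or cilia, namely the sperm-egg fusion protein gene Izumo1, Spaca4, the testis lactate dehydrogenase gene Ldhc, Syngr4 and the dynein-docking gene Ccdc114, reached at most 0.745 FPKM. The fucosyltransferase genes Fut2 and Sec1, with Fam83e and Car11, reached at most 0.853 FPKM. Mamstr, a coactivator of the muscle factor MEF2, was listed at 0 in Myod1_active, at 0.0119 and 0.0438 FPKM in Myod1_control, at 0.0729 and 0.164 in SunTag, and at 0.0228 and 0.0757 in WT. The activated library held the lowest of these values.

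Tested here means that a row reached 1 FPKM in at least 1 library, which 25 of the 50 did, 19 of them with a gene name. Of the 25, 4 were below 1 FPKM in at least 1 library, and 21 were at 1 FPKM or more in all 7. Within 250 kb of Myod1, 2 of 7 rows were tested, against 12 of 17 between 250 and 500 kb and 11 of 26 between 500 and 750 kb. The nearest tested gene after Myod1 was Sergef at 64.1 kb, and the nearest before it was Nomo1 at 292 kb. Tested or not, 20 of the 50 rows overlap another row on the genome, and the sources used here do not say whether counting used strand, so fragments of overlapping genes cannot be told apart.

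Ldha, the A subunit of lactate dehydrogenase, was the highest of the 40 named genes, 462 kb after Myod1. It had 426 FPKM in Myod1_active, 362 and 377 in Myod1_control, 466 and 417 in SunTag, and 407 and 448 in WT. Its 7 values did not overlap those of any other of these 40. Genes of the window that were left out, such as Rpl18 and Saa1, were not ranked. Next in order of mean level came Abcc6, an ATP-releasing transporter of liver, at 77.2 FPKM, and Saa4, the constitutive serum amyloid A, at 71.1 FPKM. Kdelr1, which returns proteins to the endoplasmic reticulum, followed at 62.8 FPKM. The values of Abcc6 overlapped those of Saa4, and those of Saa4 overlapped those of Kdelr1, so the order of neighbours in this group was not separated by the spread over libraries. Below them Sphk2, a sphingosine kinase, averaged 21.2 FPKM, and Tsg101, an endosomal sorting subunit, lay between 18.5 and 26.3 FPKM. The span of Sphk2 overlaps that of Rpl18, which had 310 to 634 FPKM, and any part of Rpl18 fragments in the Sphk2 values was not tested. Tmem143, a little-studied predicted mitochondrial membrane protein, and Nomo1, an endoplasmic reticulum membrane protein, averaged 16.5 and 15.6 FPKM. The tested genes of secretion and endosomes, Kdelr1, Nomo1, Cyth2, Hps5, Tsg101 and Uevld, lay between 1.98 and 70.1 FPKM. The 4 tested nuclear genes, Gtf2h1, Grwd1, Sergef and Spty2d1, lay between 1.39 and 8.82 FPKM. Rasip1, a regulator of blood vessel lumen formation, was the lowest of the tested named genes, at 1.81 FPKM on average.

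**Figure D1:**
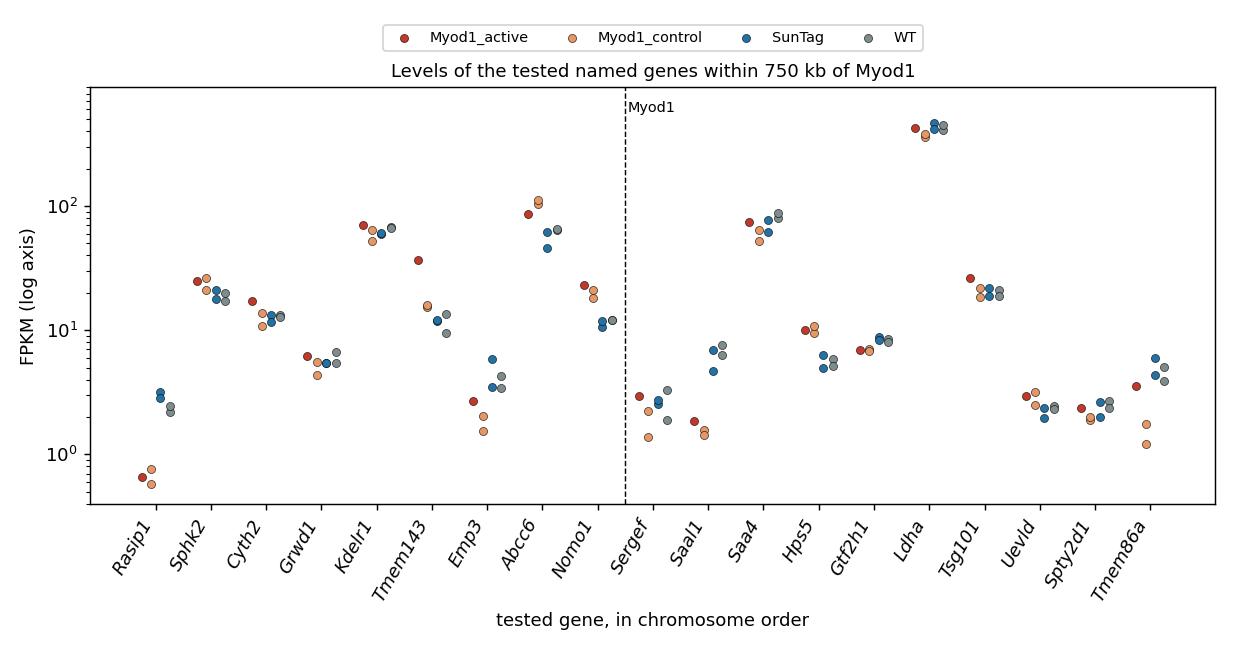
FPKM of each of the 19 tested named genes in each of the 7 libraries, on a log axis, in chromosome order with a dashed line at Myod1. Ldha sits between 362 and 466 FPKM, above all others, and Rasip1 between 0.575 and 3.17 FPKM.

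Promoter sequence was compared between the expressed and the silent neighbours. RefSeq windows of GRCm38.p6, 250 bases before to 50 bases after a gene's start, were found for 32 of the 40 named genes, as 40 windows of 300 bases. Tmem143, Abcc6, Saal1, Kcnj11, Abcc8, Kcnj14, Fut2 and Syngr4 were not among them. CpG dinucleotides had a median of 23 per window for tested genes, 9 for genes below 1 FPKM and 7 over all 32851 windows. Kcnc1, with 41 CpG and a mean of 0.0454 FPKM, and Saa4, with 1 CpG and 71.1 FPKM, went against that order. These are descriptions of the windows, and the positions are on GRCm38.p6 and not on mm9.

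**Figure D2:**
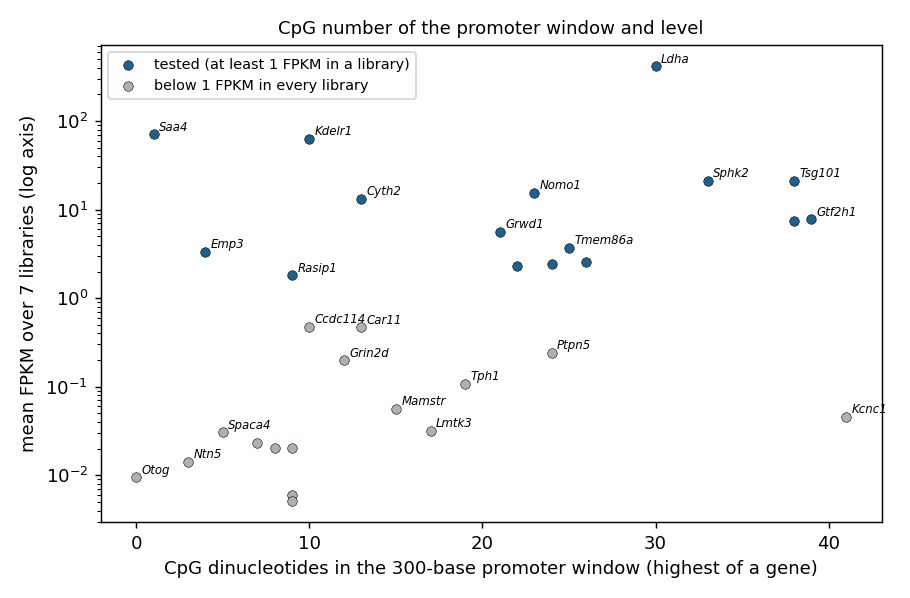
Mean FPKM over the 7 libraries (log axis) against the number of CpG dinucleotides in the 300-base promoter window with the most CpG, for the 32 named genes with a window. Tested genes spread from 1 to 39 CpG and genes below 1 FPKM from 0 to 41, with Kcnc1 at 41.

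The CAGCTG form of the E-box, searched on both strands, which read alike, was in 5 of the 40 windows (12.5%), against 16.3% of all windows. The CACGTG form, bound by other helix-loop-helix factors such as USF and MYC, was in 4 of 40, against 7.15% of all windows. Among these 4 are the windows of Hps5 and Gtf2h1, which are largely the same bases, so the same motif pair counts for both. Any CANNTG, which includes both, was in 72.5% of the 40 and in 72.3% of all. CAGCTG was in 2 of 19 windows of tested genes (10.5%) and in 3 of 21 windows of genes below 1 FPKM (14.3%). The latter belong to Mamstr, Ntn5 and Car11. The 2 tested genes were Cyth2 and Emp3, shown here because MYOD1 was the activated factor. Emp3 and Car11 each have another window without CAGCTG. Cyth2 encodes an exchange factor for ARF GTPases, and its window is chr7:45814267-45814566 on the minus strand. Emp3 encodes an epithelial membrane protein, and its window shown is chr7:45921377-45921676 on the minus strand. Capitals mark CAGCTG, and a match is no evidence of binding.
Cyth2: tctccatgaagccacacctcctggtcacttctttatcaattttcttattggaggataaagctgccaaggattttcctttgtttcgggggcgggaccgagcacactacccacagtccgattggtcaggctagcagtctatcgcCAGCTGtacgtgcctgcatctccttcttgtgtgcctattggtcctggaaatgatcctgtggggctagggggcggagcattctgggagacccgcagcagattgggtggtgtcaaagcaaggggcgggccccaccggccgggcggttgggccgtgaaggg
Emp3: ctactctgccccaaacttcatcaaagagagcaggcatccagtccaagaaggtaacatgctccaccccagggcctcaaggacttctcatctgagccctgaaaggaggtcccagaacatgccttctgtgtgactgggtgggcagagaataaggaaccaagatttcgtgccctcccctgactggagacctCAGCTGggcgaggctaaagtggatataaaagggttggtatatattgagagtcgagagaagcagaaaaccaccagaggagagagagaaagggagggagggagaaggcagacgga

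Hps5, a subunit of a lysosome-related organelle complex, and Gtf2h1, a subunit of the transcription factor TFIIH, start back to back and share most of a window, so both are shown. Their spans are 38 bases apart on mm9, and the RefSeq start sites are 213 bases apart. The Hps5 window is chr7:46795832-46796131 on the minus strand and the Gtf2h1 window is chr7:46795844-46796143 on the plus strand. They share 288 bases read from opposite strands, and both therefore hold the same pair of CACGTG motifs, marked by capitals.
Hps5: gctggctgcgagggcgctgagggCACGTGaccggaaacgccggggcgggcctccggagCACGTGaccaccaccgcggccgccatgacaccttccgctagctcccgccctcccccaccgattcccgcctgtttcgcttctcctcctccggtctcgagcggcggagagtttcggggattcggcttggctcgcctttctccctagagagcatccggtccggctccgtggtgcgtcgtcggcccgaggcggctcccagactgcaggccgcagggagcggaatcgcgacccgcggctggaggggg
Gtf2h1: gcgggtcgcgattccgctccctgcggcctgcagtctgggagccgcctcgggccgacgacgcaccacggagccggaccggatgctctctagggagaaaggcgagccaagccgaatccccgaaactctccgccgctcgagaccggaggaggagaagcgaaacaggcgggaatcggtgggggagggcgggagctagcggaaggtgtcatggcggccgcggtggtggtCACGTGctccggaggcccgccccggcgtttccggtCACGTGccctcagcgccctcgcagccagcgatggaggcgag

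The first comparison set Myod1_active against Myod1_control and asked which neighbours differed when Myod1 was on. No tested gene of the window passed the test, 0 of 25 by limma at an adjusted p under 0.05, against 0.254% of the 15746 genes tested (40 genes, 34 higher and 6 lower). At an unadjusted p under 0.05 the count was 3 of 25 (12.0%; Tmem143, Tmem86a and the pseudogene Gm5331), against 19.5% of all genes. The Myod1_active value fell outside that of both controls for 17 of 25 genes (68.0%), against 78.0% of all genes. It was higher for 15, against 61.4% of all genes, and lower for 2, Abcc6 and the clone AC167242.1, against 16.6%. The median gene of the whole table was 0.25 higher on the log2(FPKM + 1) scale in Myod1_active, so differences are given less that shift, while SE and p belong to the difference before it was taken off. On that footing the window's genes had a median of -0.05, with 11 above and 14 below the median gene.

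On the log2(FPKM + 1) scale Tmem143 had the largest positive difference of the named genes. With a pseudocount of 0.1 its difference before the shift, 1.23, was level with the 1.24 of Tmem86a. Tmem143 lies at chr7:53152311-53172783, 459 kb before Myod1, and had 36.8 FPKM in Myod1_active, 15.3 and 16.1 in Myod1_control, 11.9 and 12.1 in SunTag, and 13.6 and 9.51 in WT. The activated library was above the other 6, which ran from 9.51 to 16.1 FPKM, with both Myod1_control libraries above those of SunTag and WT. The log2 difference relative to the median gene was 0.93 (SE 0.23, n = 1 against 2), with a limma adjusted p of 0.158. The 36.8 FPKM lay above its own deposited bounds of 22.7 to 27.9 FPKM. The values of Myod1_control replicate 2 (16.1 FPKM, upper bound 14.4), SunTag replicate 2 and WT replicate 1 also lay above their own bounds. The bounds of the activated library were above the bounds of the other 6 libraries, whose highest was 16.9 FPKM. Over all alternatives run the adjusted p of Tmem143 was 0.124 to 0.299.

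Tmem86a, a lysoplasmalogenase that breaks down ether lipids, lies 672 kb after Myod1. It had 3.56 FPKM in Myod1_active, 1.74 and 1.21 in Myod1_control, 5.92 and 4.35 in SunTag, and 3.91 and 5.04 in WT. The activated library was above its controls and below both SunTag libraries and both WT libraries. Its relative log2 difference was 0.64 (SE 0.26, limma adjusted p = 0.201). Cyth2 had 17.2 FPKM in Myod1_active, 13.8 and 10.8 in Myod1_control, 13.2 and 11.6 in SunTag, and 13.3 and 12.8 in WT. The activated library was the highest, and the relative log2 difference was 0.21 (SE 0.20, limma adjusted p = 0.279). Emp3, the other tested gene with CAGCTG in a window, had 2.70 FPKM in Myod1_active and 2.05 and 1.55 in Myod1_control. Its relative log2 difference was 0.16 (SE 0.31, limma adjusted p = 0.486).

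Sergef, the nearest tested gene and an RCC1-like protein linked to secretion, had 2.95 FPKM in Myod1_active, 1.39 and 2.23 in Myod1_control, 2.57 and 2.72 in SunTag, and 1.88 and 3.28 in WT. The activated library was above its controls and inside the range of the WT pair. Its relative log2 difference was 0.26 (SE 0.31, limma adjusted p = 0.401). Tsg101 had 26.3 FPKM in Myod1_active, 21.9 and 18.5 in Myod1_control, 21.7 and 18.9 in SunTag, and 20.9 and 18.7 in WT. It was highest in the activated library, with a relative log2 difference of 0.11 (SE 0.19, limma adjusted p = 0.331). Kdelr1 had 70.1 FPKM in Myod1_active, against 63.8 and 52.1 in Myod1_control. Relative to the median gene it differed by 0.025 (SE 0.18, limma adjusted p = 0.416). Before that shift was taken off its difference was 0.277, and the same measure was -0.038 after median-ratio scaling.

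Abcc6, Ldha and Sphk2 sat below the median gene. Abcc6 had 87.0 FPKM in Myod1_active, 104 and 112 in Myod1_control, 45.9 and 62.0 in SunTag, and 64.2 and 65.4 in WT. It was lower in the activated library than in both controls, by a relative log2 difference of -0.56 (SE 0.22, limma adjusted p = 0.458). Ldha differed by -0.05 and Sphk2 by -0.17 relative to the median gene. Before that shift was taken off both differences were above 0, and both were below 0 under median-ratio scaling. Saa4 had 74.0 FPKM in Myod1_active and 64.5 and 52.6 in Myod1_control, a relative difference of 0.09 (SE 0.22, limma adjusted p = 0.425). The small U6 row, 71.3 kb after Myod1, had 6.51 FPKM in Myod1_active and 0 in both controls. That value equals the most common non-zero value of rows of its span in the library, the lowest step of the scale. U6 also had 6.73 and 7.55 FPKM in SunTag, and 0 and 7.35 in WT. Most of the spread of U6 within groups came from that WT pair. A fit that lacks a WT library lacks this spread, so a pass of U6 there, in any comparison, was not read as a result. With either WT library left out, the difference of U6 before the shift was 2.91.

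**Figure D3:**
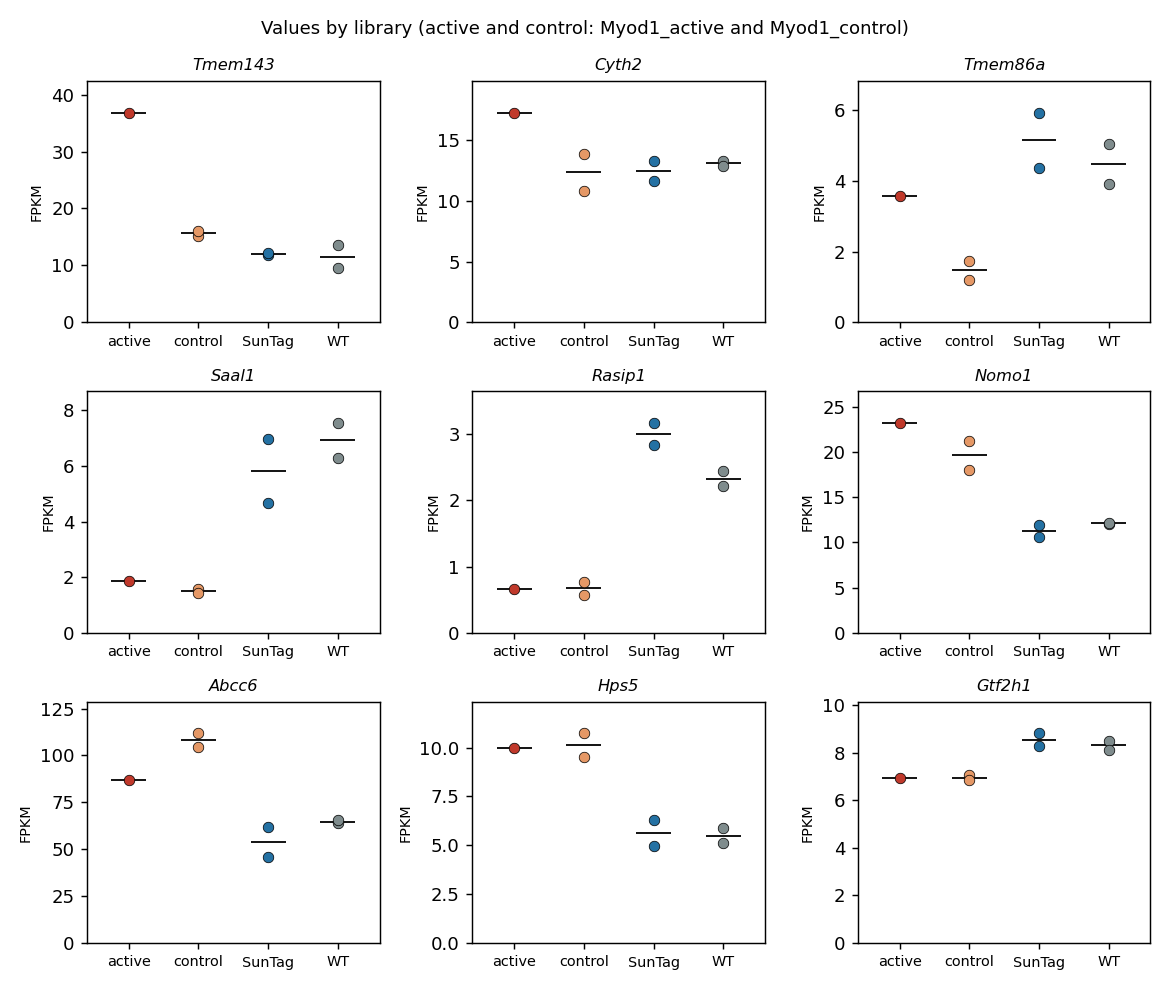
FPKM in each library for 9 genes of the window, with points for libraries and a bar at the mean of each group, on axes that start at 0. Tmem143 has 36.8 FPKM in Myod1_active and 9.51 to 16.1 FPKM in the other 6 libraries, while Nomo1, Hps5 and Abcc6 are higher in the 3 libraries of the Myod1 experiment than in the other 4.

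By distance, the 12 tested genes between 250 and 500 kb had a median relative difference of -0.031, and the 11 between 500 and 750 kb of -0.13. The 54 tested genes between 750 kb and 2 Mb, all of them before Myod1, had 0.07, and the 50 between 2 and 10 Mb had -0.05. No test of distance was made. The 2 tested rows within 250 kb, Sergef and U6, were at 0.26 and 2.66. The 2.66 of U6 sets the lowest step of the scale, 6.51 FPKM, against 0 in both controls. That 6.51 FPKM lay above its own upper bound of 1.54 FPKM. Markers of other cell types were summed for the same libraries. Cholangiocyte markers summed to 80.0 FPKM in Myod1_active and 16.4 to 52.9 in Myod1_control. Most of this was Spp1, at 70.6 FPKM against 9.55 and 43.2, while Krt19 and Sox9 lay inside the control range, Epcam below it and Krt7 above it. Skeletal muscle markers summed to 4.84 FPKM in Myod1_active and 0.421 to 1.75 in Myod1_control, with 4.45 to 8.22 in SunTag and 4.82 to 7.15 in WT. Mylpf made up 4.36 FPKM of the sum in Myod1_active, and Ckm was at 0.0194 FPKM there against 0.0895 and 0.0223 in Myod1_control. Endothelial markers summed to 19.1 FPKM in Myod1_active and 27.2 to 30.2 in Myod1_control, with 4 of 5 below both controls and Stab2 between them. Kupffer cell markers, 4 of 5 with a row, summed to 25.3 FPKM in Myod1_active against 19.8 to 25.5 in Myod1_control. Cd68 was above both controls, at 14.0 FPKM against 4.51 and 9.09, while Clec4f, Timd4 and Vsig4 were below both. Clec4f had 9.05 FPKM against 11.4 and 13.3. The part of these cell types in the values above was not tested. In bulk liver fewer cells of a type and less RNA per cell cannot be told apart. No marker of these lists was at 0 in all 7 libraries.

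**Figure D4:**
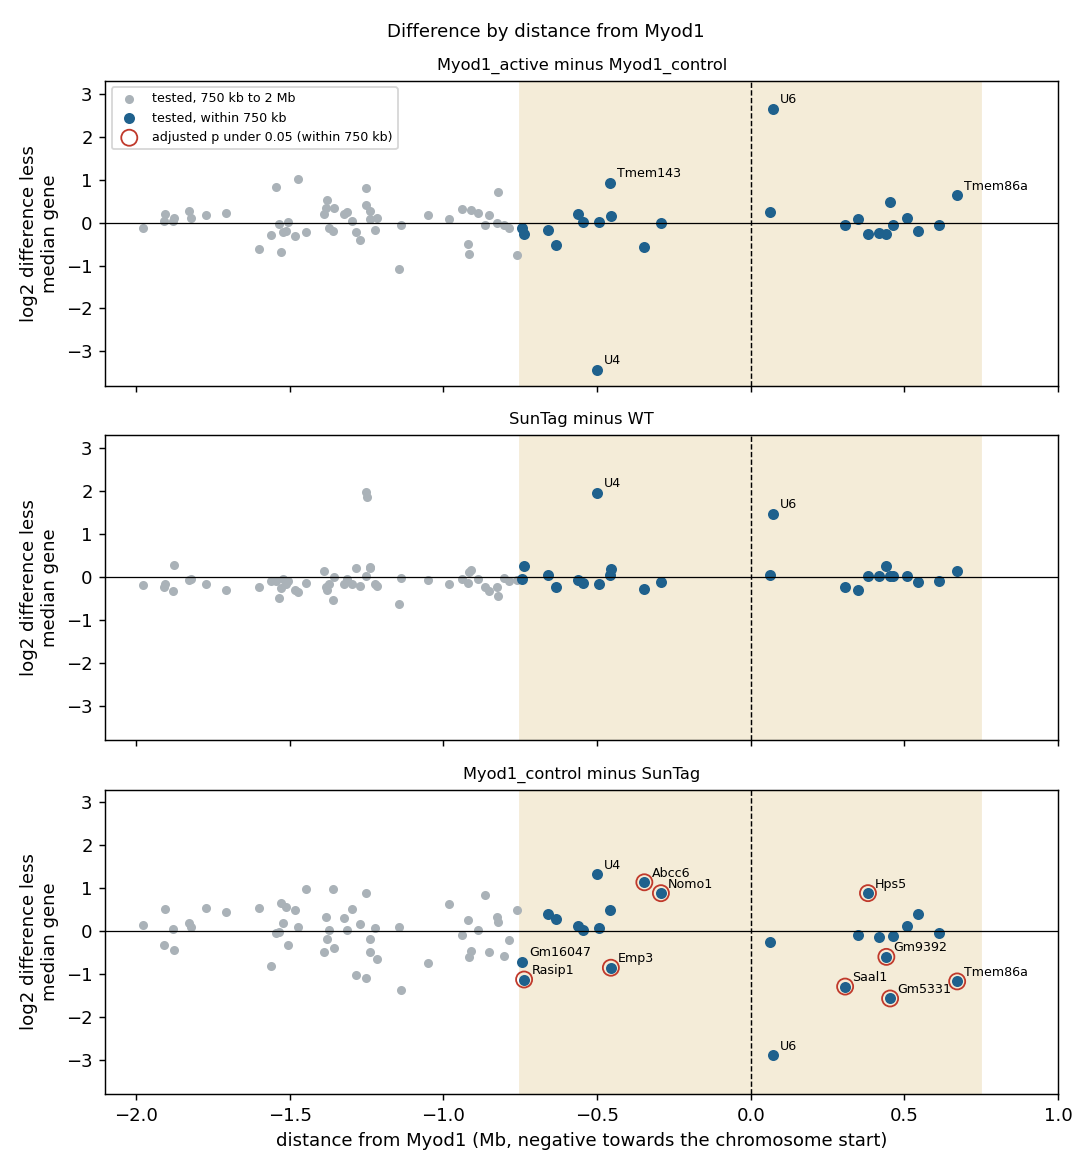
Log2 difference less that of the median gene against distance from Myod1 in Mb, negative towards the chromosome start, for the 3 comparisons, with the shaded window of 750 kb each side and red rings for genes past an adjusted p of 0.05 in the window. Rings appear in the lowest panel, Myod1_control against SunTag, around 9 genes, and in no other panel.

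The second comparison set SunTag against WT and asked whether carrying the knock-in went with different levels of the same genes. No gene of the window passed, 0 of 25 by limma, against 0.127% of all genes (20 genes), and 0 of 25 had an unadjusted p under 0.05, against 1.95% of all genes. The groups did not overlap for 8 of 25 genes (32.0%), against 25.8% of all genes. They were higher in SunTag for 2, Rasip1 and the pseudogene Gm9392, against 13.0% of all genes, and lower for 6, against 12.8%. Rasip1 had 3.17 and 2.83 FPKM in SunTag against 2.21 and 2.44 in WT. Its groups did not overlap, and the relative log2 difference was 0.25 (SE 0.14, limma adjusted p = 1.0). Saa4 had 61.2 and 76.6 FPKM in SunTag against 80.7 and 88.0 in WT, a relative difference of -0.31 (SE 0.18, limma adjusted p = 1.0). Abcc6 had the values given above and was lower in SunTag by a relative difference of -0.29 (SE 0.18, limma adjusted p = 1.0). Saa4 lay above its own deposited bounds in each of the 7 libraries. Endothelial markers summed to 90.6 to 94.6 FPKM in SunTag and 88.8 to 95.3 in WT. Red cell markers summed to 2308 to 3803 FPKM in SunTag and 1376 to 1394 in WT, and their part was not tested. The median of the window's genes was 0.019 relative to the median gene. The median gene itself differed by 0.014 between SunTag and WT, and SE and p again belong to differences before that shift.

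The third comparison set Myod1_control against SunTag, libraries of SunTag-dCas9 mice from different experiments, to describe the gap on which the first comparison sits. It shares its Myod1_control libraries with the first comparison and its SunTag libraries with the second. The sex markers differed as well. Xist had 0.324 and 0.0322 FPKM in Myod1_control against 56.9 and 76.1 in SunTag. The Y-linked Eif2s3y had 33.7 and 37.3 FPKM in Myod1_control against 0 in SunTag. By limma 9 of 25 genes passed (36.0%), against 24.3% of all genes. In Myod1_control 3 were higher, against 7.28% of all genes (1147), and 6 were lower, against 17.0% (2683). After median-ratio scaling the whole table had 1816 higher and 1756 lower, and the window 3 and 4. Of the 21 genes at 1 FPKM or more in all libraries, 8 passed. The called gene outside these 21 was Rasip1. The groups did not overlap for 17 of 25 genes (68.0%), against 66.6% of all genes. Of these 5 were higher, against 24.9% of all genes, and 12 lower, against 41.6%. The 12 include Rasip1 and the predicted gene Gm16047, which entered the test only through SunTag and WT libraries. These calls rested on the libraries used: leaving out either Myod1_control library left 0, leaving out either WT library left 1 (U6 each time), leaving out SunTag replicate 1 left 3 (Abcc6, Gm5331 and Rasip1), and 1 passed in a fit of the 4 libraries alone (U6). The median of the window's genes was -0.034 relative to the median gene. The median gene itself differed by -0.135 between Myod1_control and SunTag. Relative differences below have that shift taken off, while SE and p belong to differences before it.

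Abcc6, Nomo1 and Hps5 were higher in Myod1_control. Abcc6 differed by 1.14 relative to the median gene (SE 0.18, limma adjusted p = 0.0257). Nomo1, 292 kb before Myod1, had 18.0 and 21.2 FPKM in Myod1_control against 10.6 and 11.9 in SunTag. The Myod1_active library had 23.2 FPKM and the WT libraries 12.0 and 12.2, so the 3 libraries of the Myod1 experiment were all above the other 4. Its relative difference was 0.89 (SE 0.14, limma adjusted p = 0.0267). Hps5 had 9.54 and 10.7 FPKM in Myod1_control against 4.97 and 6.31 in SunTag, with 9.99 in Myod1_active and 5.87 and 5.12 in WT. Its relative difference was 0.89 (SE 0.16, limma adjusted p = 0.0343). Gtf2h1, which shares the start region with Hps5, had 7.04 and 6.86 FPKM in Myod1_control against 8.82 and 8.27 in SunTag, with 6.95 in Myod1_active and 8.50 and 8.11 in WT. The 3 libraries of the Myod1 experiment were below the other 4. Between Myod1_control and SunTag the relative difference was -0.13, and -0.26 before the shift (SE 0.11, limma adjusted p = 0.148), which did not pass. The difference between Hps5 and Gtf2h1 was not tested.

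Rasip1, Saal1, Tmem86a and Emp3 were lower in Myod1_control, with the pseudogenes Gm5331 and Gm9392, whose fragments may be shared with related genes. Rasip1, which acts in endothelial cells, had 0.575 and 0.764 FPKM in Myod1_control against 3.17 and 2.83 in SunTag, and 0.660 in Myod1_active. Its relative difference was -1.13 (SE 0.14, limma adjusted p = 0.0168). Rasip1 stayed below 1 FPKM in Myod1_control and Myod1_active, so it entered the test only through the SunTag and WT libraries. Endothelial markers summed to 27.2 to 30.2 FPKM in Myod1_control against 90.6 to 94.6 in SunTag, with Stab2 overlapping, and their part in the value of Rasip1 was not tested. Saal1, a serum amyloid A-like gene 307 kb after Myod1, had 1.58 and 1.43 FPKM in Myod1_control against 6.97 and 4.67 in SunTag, with 1.86 in Myod1_active and 7.55 and 6.29 in WT. The experiments did not overlap, and the relative difference was -1.29 (SE 0.21, limma adjusted p = 0.0208). Saal1 exceeded its deposited bounds in SunTag replicate 1 and in both WT libraries. Tmem86a differed by -1.17 (SE 0.21, limma adjusted p = 0.0234). Emp3 had 2.05 and 1.55 FPKM in Myod1_control against 5.83 and 3.47 in SunTag, a relative difference of -0.85 (SE 0.25, limma adjusted p = 0.0495). After median-ratio scaling Emp3 and Gm9392 no longer passed. Kupffer cell markers summed to 19.8 to 25.5 FPKM in Myod1_control against 133 to 190 in SunTag, with Cd68 overlapping between the groups. Red cell markers summed to 39.7 to 45.5 FPKM in Myod1_control against 2308 to 3803 in SunTag. Alas2 went the other way, at 44.1 and 38.2 FPKM in Myod1_control against 21.7 and 13.8 in SunTag. Lymphocyte markers summed to 0.471 to 0.862 FPKM in Myod1_control against 6.62 to 10.9 in SunTag. The part of these cell types was not tested.

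Set against both SunTag and WT together, the 3 libraries of the Myod1 experiment lay entirely above the other 4 for 5 of 25 genes, Abcc6, Hps5, Nomo1, Tmem143 and Uevld, against 18.4% of all genes. They lay entirely below for 8 of 25 (32.0%), against 23.6% of all genes. These 8 were Emp3, Gtf2h1, Rasip1, Saal1, Tmem86a, Gm16047, Gm5331 and Gm9392. Rasip1 and Gm16047 stayed below 1 FPKM in the Myod1 experiment, so they entered the test only through SunTag and WT libraries. Uevld, which joins a domain like that of ubiquitin-conjugating enzymes to a dehydrogenase domain, had 2.97 FPKM in Myod1_active, 2.49 and 3.20 in Myod1_control, 1.98 and 2.38 in SunTag, and 2.44 and 2.33 in WT. Grwd1, a ribosome assembly protein, and Spty2d1, a histone chaperone, overlapped between the experiments. Grwd1 had 6.22 FPKM in Myod1_active, 4.39 and 5.59 in Myod1_control, 5.44 in each SunTag library, and 6.70 and 5.46 in WT. Tmem143 was highest in Myod1_active and next highest in Myod1_control.

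At the edge of the window, Izumo1 lay just inside at 748 kb and reached at most 0.0823 FPKM. Fut1, a fucosyltransferase gene, lay just outside at 755 kb and ranged from 0.0103 to 0.159 FPKM. Fgf21, a liver hormone gene 761 kb away, had 0.129 FPKM in Myod1_active, 0.224 and 1.12 in Myod1_control, 0.270 and 0.227 in SunTag, and 0.251 and 0.365 in WT.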

How the data were processed

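Liver RNA from 7 libraries was compared in 4 groups, as the labels give them. The deposited values were FPKM per gene with bounds and a status, per the file headers. The authors made them with cutadapt 1.11, TopHat2 2.1.1, Cufflinks 2.2.1 and mm9, per the submitters' processing notes. The sources used here give neither annotation nor strand use. The 343 rows not OK in a library were left out, and rows of 244 symbols were summed, with the rows of the window kept apart. Rows reaching 1 FPKM in a library, 15746, entered limma 3.58.1 (R 4.3.3) on the log2(FPKM + 1) scale. All 7 libraries shared the fit, which had 3 residual and 1.93 prior degrees of freedom. Tests were two-sided, and p was adjusted by Benjamini-Hochberg over the whole table, with calls at 0.05. Low genes' differences are understated on this scale. The code was tested on simulated data. Replicates are separate libraries by label only, so p-values measure the spread between libraries, which may be technical. Replicate numbers were not treated as pairs. Read depth was unknown. Of 265 values above 0 in the window, 34 lay outside their own bounds. Named, most of them with values in each library, were the 8 smallest p in the first comparison and the 4 smallest in each other. The 5 highest means and the 3 nearest names each side were named likewise. Predicted genes and small RNAs were mostly counted only. Members and lists were chosen with earlier results of these data known. Alternatives were another pseudocount, other filters, median-ratio scaling, fewer libraries, a replicate block and leaving out each library.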

Additional observations from a re-analysis of the deposited data

How the results depend on the processing

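With 1 activated library and 2 in each other group, the calls moved with the libraries used. Genes called between Myod1_active and Myod1_control numbered 40, against 23 with a pseudocount of 0.1, 253 with no filter on low values and 0 in a fit of those 3 libraries alone, where 2612 had an unadjusted p under 0.05. Leaving out 1 library gave 50 to 122 genes and 0 to 1 genes of the window, the 1 being U6. Between SunTag and WT it gave 20 to 79 genes and 0 to 1 of the window, again U6. Between Myod1_control and SunTag it gave 49 to 4036 genes and 0 to 8 of the window, with a window median of -0.18 to 0.019, and the 4 libraries alone gave 51 genes and 1 of the window.

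Replicate numbers of WT and SunTag did not deviate together (r = 0.043 over genes, replicate 1 minus replicate 2), so they were not read as pairs. With the replicate block 23, 15 and 2889 genes were called in the 3 comparisons, and 0, 0 and 7 of the window.

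Median-ratio scaling turned the uncalled differences of Kdelr1 (-0.038), Ldha (-0.11) and Sphk2 (-0.23) between Myod1_active and Myod1_control below 0, as did leaving out Myod1_control replicate 1 for Sphk2 (-0.075, range to 0.23). The cause was not tested.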
